A study of Ctenopharyngodon idella and Danio rerio with 13 samples.

Results

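The sperm of wild-type zebrafish (Danio rerio) are described here on their own, from the 5 libraries of the series that carry that title, out of 13 libraries in all. The labels give the genotype as wildtype and no strain, age or treatment, and each library was made from a different fish. Per the labels' protocols, 0.5 μL of sperm was diluted in 20 μL of buffer, and RNA extraction and cDNA synthesis then took place in a single reaction on 1 μL of the dilution, with a kit that amplifies full-length mRNA from single cells. The labels give the molecule as polyA RNA. The study also held sperm of grass carp and of zebrafish that had received germline stem cell transplantation, which are not used here. The deposited rows are grass carp genes, and all symbol and LOC rows were found in the grass carp RefSeq table (assembly HZGC01). A count in these libraries is therefore taken as a zebrafish read that was assigned to a gene of another fish. The species of the reads was not checked. A row at 0 does not show that the transcript was absent. With 1 group and no contrast there is no test of a difference here, and the values below are descriptions.

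Mature sperm make little new RNA. The RNA they hold is mostly what remains from spermatogenesis, so messages of the flagellum, of the germ line and of the translation machinery are those usually looked for. A small volume of semen can also hold cells other than sperm. In such a bulk sample fewer cells of a type and less RNA per cell cannot be told apart.

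Replicates 1, 2, 4 and 5 held 288031, 267957, 294266 and 498726 counts, and replicate 3 held 1594. Replicate 3 was nearly empty, so its values are given beside the others and no statement rests on it. Of the 31338 rows, 6268, 4015, 3411 and 4977 had at least 1 count in replicates 1, 2, 4 and 5, and 239 in replicate 3. Counting error on a share of these totals is given as a Wilson 95% interval. Amplification can copy 1 molecule into many reads, so such intervals and the limits set by a count of 0 cover counting error only. Scaled to the counts on named rows, a limit of 3 counts stood at 12.08, 50.6, 28.4 and 16.4 CPM (counts per 1000000) in replicates 1, 2, 4 and 5, and at 6160 CPM in replicate 3.

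Most counts fell on rows that name no protein. Rows that start with unassigned_gene_, 24 in number, held 77.9% of the counts in replicate 2 (interval 77.7 to 78.1), 64.1% in replicate 4 (64.0 to 64.3) and 63.3% in replicate 5 (63.1 to 63.4), but 13.8% in replicate 1 (13.7 to 13.9). The mean was 54.8% ± 28.1 (SD, n = 4), and without replicate 1 it was 68.4%. The 11848 LOC rows, which are annotated genes without a symbol, took the larger part of replicate 1 instead, 76.4% of its counts (76.2 to 76.5). In replicates 2, 4 and 5 they took 5.61%, 20.95% and 19.2%, and the mean was 30.5% ± 31.3 (SD, n = 4; 15.25% without replicate 1). The 17839 symbol rows, all of them protein-coding genes, varied less between libraries than those and held 9.82%, 16.5%, 14.9% and 17.5% of the counts in replicates 1, 2, 4 and 5 (14.7% ± 3.42, SD, n = 4). Rows starting with trna held 0.0153%, 0.0138%, 0.00782% and 0.0154%. In replicate 3 the shares were 69.5% on unassigned rows (67.1 to 71.7), 6.21% on LOC rows, 24.3% on symbols (22.2 to 26.4) and 0.0627% on trna rows, which was 1 count.

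**Figure D1:**
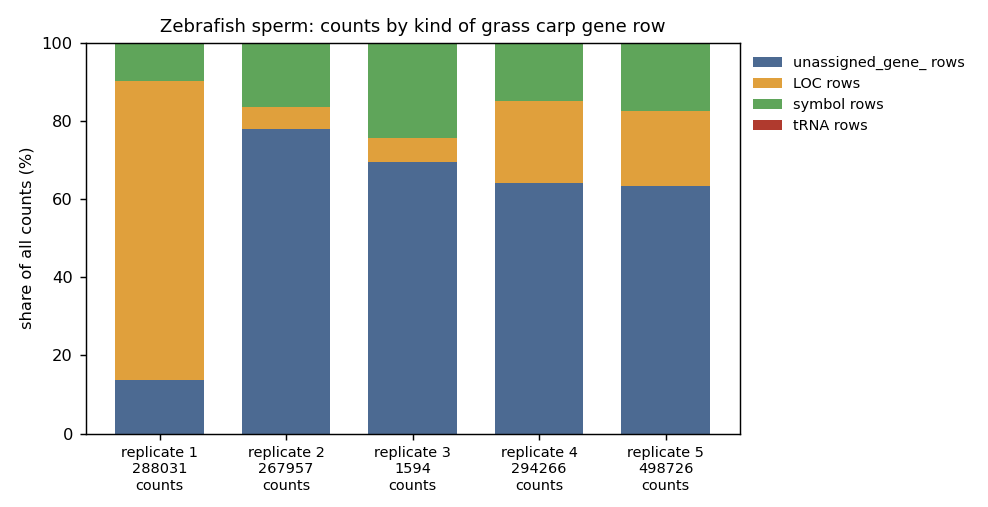
Share of all counts (vertical axis, %) on each kind of grass carp gene row in the 5 zebrafish libraries, with the total count under each bar. Unassigned rows lead in replicates 2, 3, 4 and 5 and LOC rows lead in replicate 1, while symbols hold 9.82% to 24.3%; the share of tRNA rows is too small to see.

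Nearly all counts of the unassigned rows were on 1 of them. The row unassigned_gene_4 held 39695, 208176, 188659 and 314507 counts in replicates 1, 2, 4 and 5 and 1105 in replicate 3, which was 99.7% to 99.96% of its kind in these libraries. The next, unassigned_gene_2, held 12, 539, 71 and 918 counts, with 2 in replicate 3. Another row, unassigned_gene_11, had 2, 3, 0 and 20. Of the 24 rows 5 had a count in any of replicates 1, 2, 4 and 5. In the files the 24 rows form a block of 37 rows together with the 13 protein genes of the mitochondrial genome. They carry no gene name there, so none is given to them here.

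Those 13 mitochondrial genes, for proteins of electron transport and ATP synthesis, were almost without counts. ATP6 had 0, 10, 2 and 26 counts in replicates 1, 2, 4 and 5, ND4 had 0, 6, 0 and 15, and COX1 had 0, 0, 0 and 6. The other members had no count in the 4 libraries. In replicates 2, 4 and 5, then, 1 unnamed row of this block took more counts than any named gene, while the protein genes of the same block stayed near 0.

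LOC counts were also led by a single row, to a varying degree. LOC127507967, annotated as ribosomal RNA (rRNA) in the RefSeq table, held 203963, 8481, 54257 and 85119 counts in replicates 1, 2, 4 and 5 and 45 in replicate 3. LOC127507968, a second rRNA row, held 9824, 1315, 973 and 3862, and 0 in replicate 3. The first alone made up 92.7%, 56.4%, 88.0% and 88.9% of LOC counts in replicates 1, 2, 4 and 5, and together they made up 97.2%, 65.1%, 89.6% and 93.0%. The ratio of the first row to the second ran from 6.45 in replicate 2 to 55.8 in replicate 4. Since rRNA copies are near-identical, reads could be split between such rows, and the counts of single rRNA rows are uncertain.

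The balance between LOC127507967 and unassigned_gene_4 set replicate 1 apart. The ratio of the former to the latter was 5.14 in replicate 1, against 0.0407 in replicate 2, 0.288 in replicate 4 and 0.271 in replicate 5. These 2 rows and LOC127507968 together held 88.0%, 81.4%, 82.9% and 80.9% of all counts in replicates 1, 2, 4 and 5. Outside them 12.0%, 18.65%, 17.1% and 19.1% of the counts remained. The libraries were thus more alike in how much the large rows left over than in which large row led. For the same reason values scaled to named counts run low in replicate 1 and high in replicate 2, and counts or shares of symbol counts are given below where that matters.

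Apart from these 2 rows, LOC rows held 6209, 5244, 6433 and 6739 counts in replicates 1, 2, 4 and 5. The range was narrow by counts only. As shares of named counts they held 2.5%, 8.85%, 6.10% and 3.68%. With at least 3 counts in each of the 4 libraries, 84 of the 11848 LOC rows recurred (0.709%), of which 61 are annotated as protein-coding, 19 as long noncoding RNA (lncRNA) and 4 as rRNA. LOC127497132, an lncRNA, had 516, 100, 236 and 212 counts, with 6 in replicate 3. LOC127513206, also an lncRNA, had 7, 353, 298 and 743, and LOC127525779 had 294, 24, 15 and 74. Replicate 1 was the highest library for LOC127497132 and LOC127525779 and the lowest for LOC127513206. LOC127507980, a further rRNA row, had 81, 16, 309 and 157 counts. Of 94 rRNA rows 20 had a count in the 4 libraries. Other LOC rows were far higher in 1 library than in the rest, among them LOC127520505 with 1, 874, 2 and 3 counts and LOC127507924 with 28, 0, 1915 and 26.

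Transfer RNA rows were nearly empty. Of the 1627 rows that start with trna, 2 are protein-coding genes whose symbols share that start, and both were at 0. Of all 1627 rows 53 had a count in the 4 libraries, 36 of them in 1 library alone. No row reached 3 counts in each library, and 2 had at least 1 count in each. These were trnar-ccu_29, with 2, 7, 6 and 15 counts in replicates 1, 2, 4 and 5 and 1 in replicate 3, and trnaq-cug_36, with 2, 1, 1 and 8. The largest count on a row was 15. The highest of the others, trnaq-uug_30, had 0, 2, 0 and 11. Copies of a tRNA gene are near-identical, so the row that holds such a read is uncertain.

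Symbols were next asked in how many libraries they were counted. At least 1 count was found on 4987, 3240, 2777 and 4019 symbols in replicates 1, 2, 4 and 5, and 31.0% to 37.9% of these had exactly 1 count. Over the 4 libraries 7030 symbols (39.4%) had a count in at least 1, and 1367 (7.66%) had one in each. With a minimum of 3 counts in each library 500 symbols recurred (2.8%), and this is what recurring means below. A further 600 reached 3 counts in 3 of the libraries, 829 in 2 and 1668 in 1. The number follows the minimum and the depth: 86 symbols had at least 10 counts in each library, and when each library was thinned to the 28281 symbol counts of replicate 1, the mean over 100 draws was 247. Dropping replicate 4 from the requirement left 761, and the step from 4 libraries to 3 can only raise the number.

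The 500 recurring symbols held 39.0%, 46.6%, 54.65% and 49.7% of symbol counts in replicates 1, 2, 4 and 5. They spanned more of the genome than other symbols, with a median gene span of 39.8 kb against 11.6 kb for the symbols outside the set. When symbols were ordered by span and cut into 10 equal bins, 194 of 1784 recurred in the bin of longest span (10.9%), against 17 of 1784 in bin 5 (0.953%) and 32 of 1784 in the bin of shortest span (1.79%). Recurrence was thus lowest at middle spans and highest at long ones. Across symbols, which are not independent, the Spearman rho of counts with span was 0.302, 0.222, 0.215 and 0.239 in replicates 1, 2, 4 and 5. The part that span plays in recurrence was not tested.

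**Figure D2:**
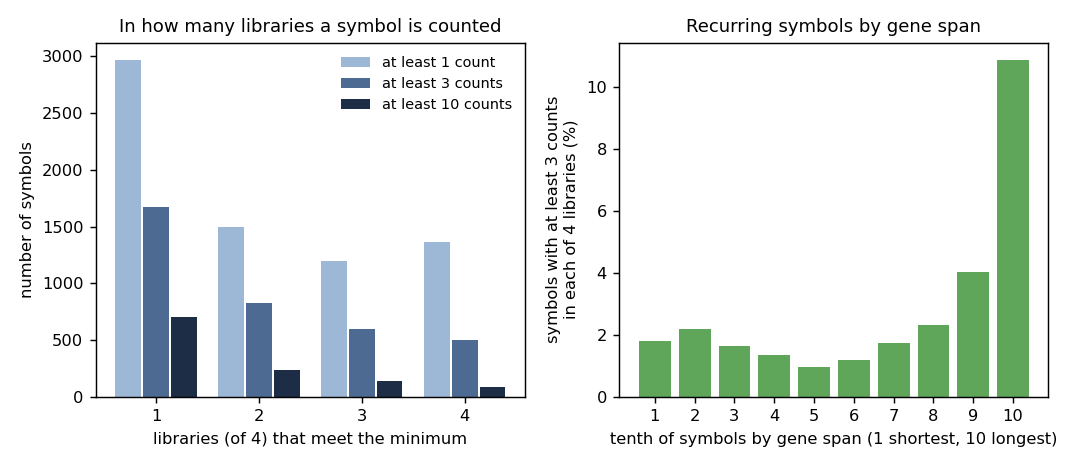
Left, number of symbols (vertical axis) counted in 1, 2, 3 or 4 of replicates 1, 2, 4 and 5 at a minimum of 1, 3 or 10 counts. Right, percentage of symbols with at least 3 counts in each of the 4 libraries, in 10 bins of gene span from shortest to longest. The highest bar, 10.9%, is the bin of longest span.

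The recurring symbols differed widely in how even they were. The ratio of the highest to the lowest count over the 4 libraries was at most 3 for 220 symbols, between 3 and 10 for 180 and above 10 for 100. For comparison, symbol totals differed by 3.09-fold between these libraries. Symbols with a ratio of at most 3 had a median span of 55.1 kb and those above 10 one of 12.9 kb. Counts were mostly small, and 380 of the 500 stayed under 50 in each library. With at least 3 counts required in each library, small counts limit how high this ratio can be.

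By the CPM of its lowest library, cytoplasmic actin stood first among symbols. The actin gene actb2 had 681, 512, 4029 and 2073 counts in replicates 1, 2, 4 and 5 and 36 in replicate 3, and was the largest symbol of replicates 3 and 4. Its close relative actb1 had 96, 112, 86 and 305. The pair encode near-identical proteins, so reads could be split between them. The monomeric actin binding protein tmsb4x had 35, 49, 147 and 297 counts. The prothymosin gene ptmaa, for an acidic nuclear protein, had 93, 78, 1443 and 824, and its relative ptmab had 40, 8, 115 and 140. By counts, replicates 4 and 5 were the higher libraries for all of actb2, tmsb4x, ptmaa and ptmab. By share of symbol counts this held for tmsb4x, ptmaa and ptmab. The share of actb2 was 2.41% in replicate 1 and 2.37% in replicate 5.

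Of the gene groups, cytosolic ribosomal protein genes held the most counts in replicates 1, 2 and 5. In replicate 4 cytoskeleton genes held more, at 4705 counts. The 85 ribosomal protein rows held 2665, 13211, 4336 and 20416 counts in replicates 1, 2, 4 and 5. This was 9.42%, 29.9%, 9.89% and 23.3% of symbol counts. Of the 85, 27 recurred (31.8%), against 2.8% of all symbols. Without replicate 4 that number was 46. The gene rps15a had 198, 615, 938 and 455 counts, rpl23 had 183, 68, 200 and 833, and rpl39 had 97, 65, 345 and 1758. Highest values were in replicate 4 for rps15a and in replicate 5 for rpl23 and rpl39. The gene rps14, with 96, 427, 89 and 197 counts, was highest in replicate 2. The gene rpl37 had 63, 1344, 443 and 1603.

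Some ribosomal protein genes were lowest by far in replicate 4. The gene rps12 had 193, 1897, 2 and 2350 counts in replicates 1, 2, 4 and 5, so it did not recur although it was the largest symbol of replicate 2. The gene rpl38 had 227, 639, 5 and 939, and rps24 had 107, 580, 15 and 484. Replicate 4 was therefore among the highest for rps15a and the lowest for rps12, genes of the same ribosomal subunit. Over the 27 recurring members the median ratio of highest to lowest count was 22.1, against 3.5 for all recurring symbols. Most recurring symbols had small counts, which limit this ratio.

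Other messages of translation followed no common order. The start codon selection factor eif1 had 42, 3, 2288 and 360 counts, with 7 in replicate 3. It was the 1 member of 49 translation factors that recurred (2.04%, against 2.8% of all symbols). The ribosomal scaffold rack1 had 165, 154, 13 and 496, and naca, which binds nascent chains at the ribosome, had 56, 94, 3 and 1235. Replicate 4 was the highest for eif1 and the lowest for rack1 and naca. Against the same 2.8%, 6 of 48 RNA binding genes recurred (12.5%) and 4 of 43 cytoskeleton genes (9.30%). Of 25 histone, high mobility group and prothymosin genes 3 did (12.0%).

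Some abundant symbols belong to no such group. The gene mybpc2a, for a myosin-binding protein of fast skeletal muscle, had 13, 770, 1433 and 5715 counts in replicates 1, 2, 4 and 5 and 20 in replicate 3, and was the largest symbol of replicate 5. Other muscle genes varied. The titin genes ttn.1, with 27, 23, 16 and 32 counts, and ttn.2, given below, recurred. The skeletal actin gene acta1a had 3, 1, 2 and 1 counts, and mylpfa, mylpfb and tnnt3a were at 0. The gene zfp36l1a, for a protein that binds AU-rich messages and speeds their decay, had 285, 59, 84 and 347. The transcription factor cebpb, the largest symbol of replicate 1, had 1023, 5, 0 and 794. The cAMP phosphodiesterase pde4ba had 438, 12, 6 and 224, and the immediate early factor egr1 had 299, 13, 5 and 47. Replicates 1 and 5 were the higher libraries for zfp36l1a, cebpb, pde4ba and egr1. Of 41 heat shock and immediate early genes 3 recurred (7.32%, against 2.8% of all symbols).

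**Figure D3:**
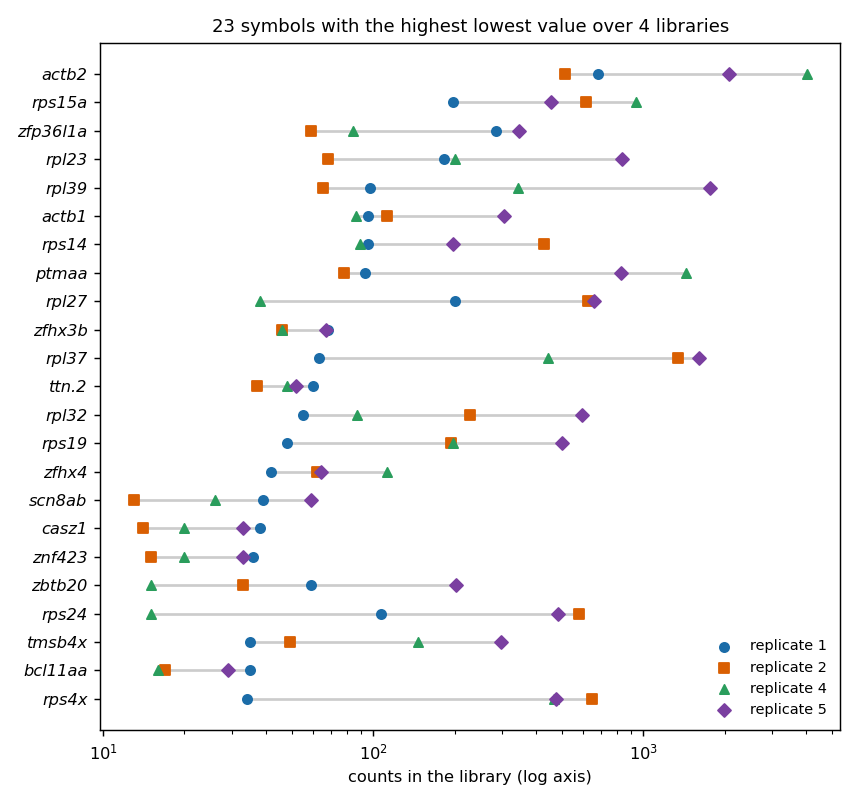
Counts in replicates 1, 2, 4 and 5 (points, log axis) of 23 symbols with the highest lowest-of-4 CPM, with a line from the lowest to the highest count. Ribosomal protein genes and actb2 spread widely, while zfhx3b lies between 46 and 68 and ttn.2 between 37 and 60.

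Other recurring symbols were lower, and their counts, not scaled to library totals, were more even. To describe them, 18 gene families, many of them transcription factors of development or proteins of neurons, were picked by symbol after the counts had been seen, and they get no test. The zinc finger homeobox gene zfhx3b had 68, 46, 46 and 67 counts in replicates 1, 2, 4 and 5 and 4 in replicate 3. Its relative zfhx4 had 42, 62, 112 and 64. The zinc finger factor casz1 had 38, 14, 20 and 33, and sox6, an SRY-related factor, had 29, 29, 25 and 39. By counts, the highest library was at most 3-fold above the lowest in each of these 4 genes. Shares of symbol counts were less even, at 0.0766% to 0.240% for zfhx3b and 0.0732% to 0.255% for zfhx4. For casz1 they ran from 0.0317% to 0.134% and for sox6 from 0.0446% to 0.1025%. By counts the giant muscle protein titin was as even, with 60, 37, 48 and 52 on ttn.2. So was the developmental factor zic6, with 27, 21, 18 and 20. Their shares of symbol counts ran from 0.0594% to 0.212% and from 0.0229% to 0.0955%. Some recurring genes of the same kinds were uneven. The homeobox gene dlx1a had 8, 653, 11 and 10 counts, lhx9 had 5, 11, 222 and 6, pou4f2 had 6, 150, 22 and 10, and the neuronal RNA-binding protein gene elavl3 had 4, 321, 12 and 16. In each of these a single library was high, replicate 4 for lhx9 and replicate 2 for the others.

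Hox genes, which set position along the body axis, recurred in 18 of 47 rows (38.3%, against 2.8% of all symbols). Their summed counts were 366, 253, 196 and 315 in replicates 1, 2, 4 and 5, and 9 in replicate 3. The member with the highest lowest value was hoxb3a, at 24, 44, 35 and 70 counts. Over the 18 the median ratio of highest to lowest count was 2.96. The recurrence rule leaves out members at 0 in a library, such as hoxa5a with 35, 3, 0 and 18 counts. Small counts also limit the ratio. Of the 7 Zic genes 6 recurred, with sums of 134, 68, 113 and 87, and of the 4 zfhx genes 3, with sums of 128, 123, 168 and 168. Of 24 Sox genes 7 recurred, of 61 Fox genes 8, of 15 Pax genes 3, of 16 POU genes 4 and of 11 LIM homeobox genes 3. The Sox sums were less even, at 175, 494, 106 and 396, and sox14 alone had 25, 223, 13 and 4.

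Receptor and channel genes of neurons were counted next. Over all symbols 39.4% had a count and 2.8% recurred, and in the bin of longest span 74.7% and 10.9% did. Median spans of the families in this paragraph ran from 29.8 kb for GABA-A receptor genes to 275.5 kb for teneurins. Ionotropic glutamate receptor genes, which mediate fast excitatory transmission, had a count in 26 of 26 rows and recurred in 15 (57.7%). Their sums were 224, 121, 129 and 180 counts in replicates 1, 2, 4 and 5. The NMDA receptor subunit gene grin2aa had 26, 17, 12 and 21, and the AMPA receptor subunit gene gria4b had 15, 4, 7 and 12. Protocadherins, a family of adhesion proteins, recurred in 8 of 17 rows, with sums of 144, 115, 94 and 110. The alpha subunits of sodium and calcium channels recurred in 6 of 23 rows, with sums of 185, 79, 105 and 201, and scn8ab among them had 39, 13, 26 and 59. GABA-A receptor genes recurred in 4 of 19, with sums of 50, 31, 29 and 46, and teneurins in 3 of 5, with sums of 86, 27, 14 and 45.

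The sums of Hox, Zic, zfhx, glutamate receptor, protocadherin and GABA-A receptor genes differed by 1.37-fold to 1.97-fold between libraries, less than the 3.09-fold of symbol totals and the 7.66-fold of ribosomal protein genes. By summed counts these 6 were the most even of the families. Channel sums differed by 2.54-fold, Pax by 3.58-fold, Fox by 4.03-fold, POU by 4.09-fold, Sox by 4.66-fold, teneurins by 6.14-fold and LIM homeobox genes by 11.6-fold. As shares of symbol counts the 6 were not even, at 2.36-fold for zfhx to 4.76-fold for Zic. On that scale only zfhx of the 6 was more even than ribosomal protein genes, which differed by 3.175-fold. Pax genes (3.166-fold) and keratins (3.101-fold, on sums of only 8, 12, 4 and 11 counts) were also more even than the rest of the 6. The order of the groups thus depended on the total used. Hox genes went from 1.294% in replicate 1 to 0.360% in replicate 5, and Zic genes from 0.474% to 0.0995% in the same libraries. The sums cover all members, recurring or not. At the minimum itself little can be read from a single symbol, and shhb, a hedgehog ligand, had 3, 3, 3 and 3 counts. A further 277 symbols fell just short, with 2 as their lowest count, and 150 recurring symbols had 3 as theirs.

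**Figure D4:**
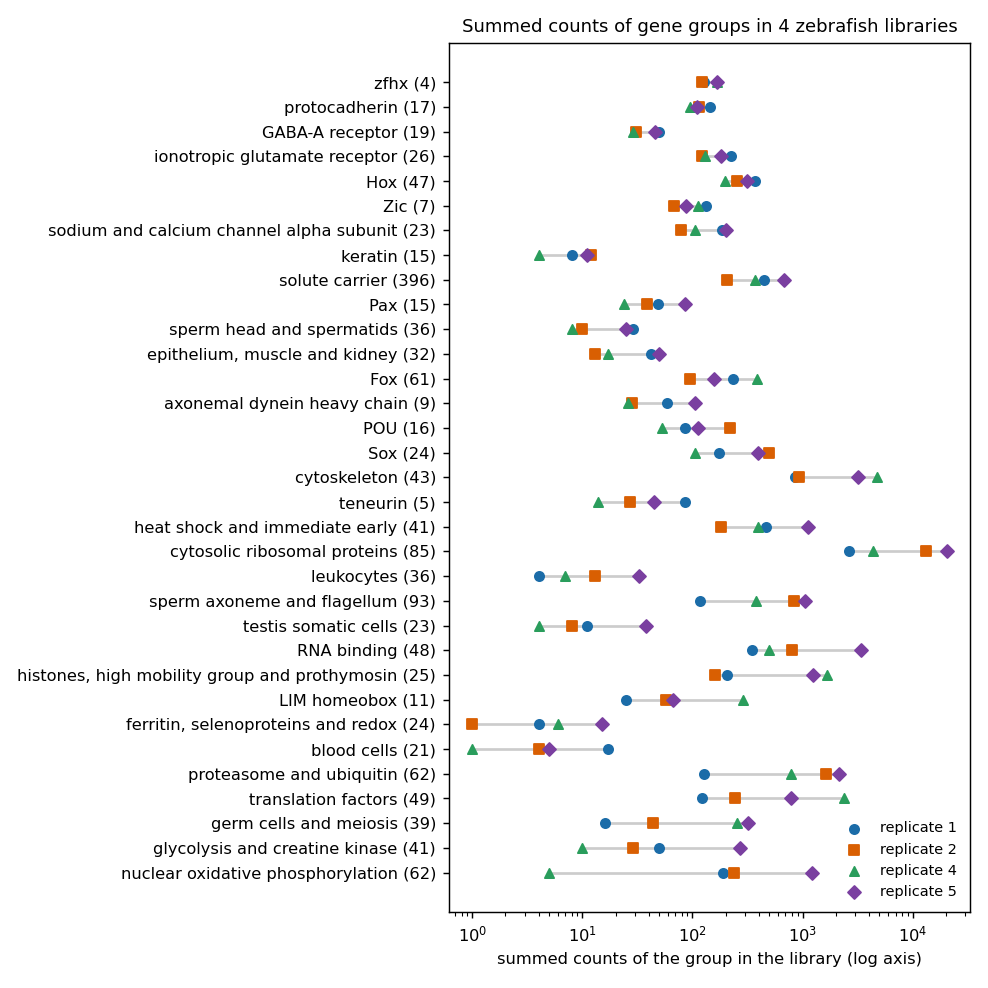
Summed counts (log axis) of 33 gene groups in replicates 1, 2, 4 and 5, ordered by the ratio of highest to lowest library, with the number of rows in brackets and a line from the lowest to the highest. Another 4 groups were at 0 in a library and are not drawn; zfhx sums lie between 123 and 168 counts and LIM homeobox sums between 25 and 290, while ribosomal protein genes run from 2665 to 20416 and nuclear oxidative phosphorylation genes from 5 to 1231.

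Against 2.8% of all symbols, 3 of 396 solute carrier genes recurred (0.758%), and 123 had a count (31.1%, against 39.4% of all symbols). Mitochondrial ribosomal protein genes had a count in 6 of 74 rows (8.11%) and claudins in 4 of 35 (11.4%). Keratins had one in 7 of 15 (46.7%), above the share of all symbols. Each of these 3 families recurred in 0. With so few claudins and keratins, 0 recurring says little beside 2.8%. Axonemal dynein heavy chains, encoded by long genes, had a count in 9 of 9 rows and recurred in 2 (22.2%).

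The label of the samples was set against markers of sperm. Of 93 axoneme and flagellum genes 56 had a count in the 4 libraries (60.2%, against 39.4% of all symbols) and 2 recurred (2.15%, near the 2.8% of all symbols). Their sums were 116, 835, 377 and 1049 counts in replicates 1, 2, 4 and 5, or 0.410%, 1.89%, 0.860% and 1.199% of symbol counts. The recurring members were the dynein heavy chain genes dnah2, with 15, 3, 5 and 10 counts, and dnah7, with 7, 5, 3 and 8. The most counted was dynll2a, a light chain shared by dynein and other complexes, with 1, 397, 188 and 201. The next was gas8, of the nexin-dynein regulatory complex, with 2, 91, 28 and 171. Replicate 1 was the lowest library for both of these and for the list. Of the list 37 members were at 0, among them tekt1, tekt3, tekt4, rsph1, rsph9, dnaaf1 and meig1.

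Germ cell and meiosis genes recurred at about the share of all symbols. Of 39 such genes 11 had a count (28.2%, against 39.4% of all symbols) and 1 recurred (2.56%, against 2.8%), the RNA-binding protein gene dazap1 with 11, 20, 3 and 5 counts. The synaptonemal complex gene sycp1 had 0, 13, 242 and 243 counts, and tdrd7a, for a tudor protein of germ granules, had 0, 11, 11 and 13. Both were at 0 in replicate 1 and counted in the other libraries. The germ cell markers ddx4, dazl, dnd1 and sycp3 were at 0, while hormad1 of the same list had 0, 0, 0 and 53 counts. Of 36 sperm head and spermatid genes 13 had a count (36.1%) and 0 recurred, and their sums were 29, 10, 8 and 25. The glycolytic gene gapdhs, whose mammalian counterpart is a sperm enzyme, had 10, 2, 0 and 63 counts.

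Marker lists of other cells had low sums, but so did the sperm head and spermatid list, so this is no contrast with sperm. The muscle genes mybpc2a, ttn.1 and ttn.2, described above, are not in these lists. Blood cell genes had sums of 17, 4, 1 and 5 counts in replicates 1, 2, 4 and 5, with the globin genes hbaa2, hbba1 and hbba2 and the heme synthesis gene alas2 at 0. Leukocyte genes had sums of 4, 13, 7 and 33, with lcp1, coro1a, mpx and lyz at 0. Testis somatic genes had sums of 11, 8, 4 and 38, with amh, gsdf, insl3 and star at 0, and oocyte and egg genes 0, 3, 1 and 3. Epithelium, muscle and kidney genes had sums of 42, 13, 17 and 50, mostly pax2a with 23, 8, 9 and 39. The kidney and brain factor gene pax2a recurred, as 1 of 32 in its list (3.12%, against 2.8% of all symbols). The androgen receptor gene ar, with 3, 6, 4 and 32 counts, recurred as 1 of 23 testis somatic genes (4.35%), and none of 21 blood, 36 leukocyte or 15 oocyte genes did. The genes named at 0 in these lists were picked after their values were seen, and other members had counts. Among those, the leukocyte genes rac2 and spi1a had 0, 0, 0 and 16 and 0, 0, 0 and 7. The leukocyte genes spi1b and rag1 had 0, 2, 4 and 6 and 0, 2, 3 and 2. The blood cell genes sptb and tfr1a had 7, 0, 0 and 0 and 3, 4, 0 and 5. With a grass carp reference the zeros in these lists limit the counts and not the zebrafish transcripts. The same holds for zeros in the sperm and germ cell lists.

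Over all symbols 39.4% had a count and 2.8% recurred. Nuclear genes of oxidative phosphorylation had a count in 16 of 62 rows (25.8%) and recurred in 0, with sums of 189, 238, 5 and 1231. A few rows carried these sums, with 165, 118, 1 and 466 counts on slc25a5 and 0, 2, 0 and 596 on atp5mc3b. Proteasome and ubiquitin genes recurred in 1 of 62 (1.61%), with sums of 126, 1624, 784 and 2161. Glycolysis and creatine kinase genes recurred in 1 of 41 (2.44%), with sums of 50, 29, 10 and 268. Ferritin, selenoprotein and redox genes had a count in 3 of 24 (12.5%). Over all lists 51 of 778 members recurred (6.555%), and 27 of these 51 were ribosomal protein genes.

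Many high counts belonged to a single library. Of 228 symbols with at least 100 counts in a library, 150 reached 100 in 1 library, 48 in 2, 27 in 3 and 3 in 4. For 33 of the 228 the other 3 libraries each had fewer than 3 counts, and of these replicate 5 held 19, replicate 4 held 9, replicate 2 held 5 and replicate 1 held 0. The proteasome subunit gene psma4 had 0, 0, 0 and 743 counts in replicates 1, 2, 4 and 5. The ATP synthase subunit gene atp5mc3b had 0, 2, 0 and 596, and ube2a, for a ubiquitin-conjugating enzyme, had 0, 0, 440 and 0. The transcriptional repressor hic1 had 5, 857, 11 and 1. These high counts thus each stood in a single library. With 1 library per fish, the fish and the amplification of its library cannot be told apart.

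Pairs of libraries shared part of their symbols. Replicates 1 and 5 both had at least 3 counts on 1211 symbols, which was 54.85% of those of replicate 1 and 57.4% of those of replicate 5, and this was the largest number shared by a pair. The smallest, 743, was that of replicates 2 and 4, at 47.8% and 59.25% of their symbols. Across the 3597 symbols with at least 3 counts in a library, the Pearson correlation of log2(CPM + 1) was 0.196 to 0.368 over the 6 pairs (mean 0.286 ± 0.066, SD over pairs). Such values over sparse counts are a description of these libraries. No pair held identical counts. Counts on named rows differed within each pair by more than independent draws of reads would, with a chi-square per degree of freedom of at least 53.6. Amplified reads are not independent draws, so this value does not show how far the RNA of the samples differed.

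Replicate 3 held 387 symbol counts on 197 symbols. Of these symbols 56 are among the 500 that recurred in the other libraries, and 17 of its 36 symbols with at least 3 counts are. Its largest symbols were actb2 with 36 counts, mybpc2a with 20 and ran, a GTPase of nuclear transport, with 8. The first of these recurred in the other libraries and ran did not, with 0, 1, 1 and 0 counts there.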

How the data were processed

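RNA of 5 zebrafish sperm libraries, each from 1 fish per the labels' protocols, was analysed; the other 8 libraries of the series were not used here. The authors deposited 1 table of raw read counts per library, with 31338 rows. Per the submitters' processing notes, which give no versions or roles, the tools included HISAT2 with SAMtools, featureCounts of Subread, and CASAVA, fastp and FastQC. How strand and multiply matching reads were handled, and which genome build and gene models served, is not given in the sources used here. Near-identical gene copies and overlapping genes are therefore uncertain.

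Rows were split by the start of their names. The 24 unassigned_gene_ rows, 13.8% to 77.9% of the counts in replicates 1, 2, 4 and 5, name no gene and were left out of library totals for CPM. Gene types and spans came from RefSeq HZGC01. A symbol was called recurring at 3 or more counts in each of replicates 1, 2, 4 and 5. Shares have Wilson 95% intervals, and a limit for a count of 0 was set at 3 counts per library. With 1 group no difference was tested.

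The members and gene lists were chosen with earlier results of these data known. Genes named were drawn from the 24 symbols with the highest lowest CPM (1 is not reported here), the 3 largest rows of each kind in each library, and up to 4 members of each list; 18 further genes, the families, and the markers named as being at 0 were chosen after their values were seen. Alternatives were other count minimums, totals, pseudocounts, TMM (edgeR 4.0.16) and DESeq2 1.42.0 size factors in R 4.3.3, thinning of counts (100 draws), inclusion of replicate 3, and each replicate left out in turn. Computation used Python 3.11.15, pandas 2.3.3, numpy 2.4.6 and scipy 1.17.1, and the functions were tested on simulated data.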

Additional observations from a re-analysis of the deposited data

Results flagged for a closer look

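For 110 values (gene groups as a share of named counts, and genes in CPM on named counts) the highest or lowest of replicates 1, 2, 4 and 5 was set against the nearest other library, and 22 stood apart by more than Dixon's 95% critical value for 4 samples. A rate of about 1 in 20 by chance alone holds for normal values chosen without seeing them. Some of these genes, such as hic1 and LOC127520505, were named as large rows of a library. Others were named after their values were seen, so the number of flags cannot be set against chance. No explanation was tested.

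Replicate 2, which has the fewest named counts, stood apart more often than each of the others. It stood above the others for rps14 at 7208 CPM (nearest 1075), hic1 at 14470 CPM (nearest 104.2), sox14 at 3765 CPM (nearest 123.2), grin2aa at 287.0 CPM (nearest 114.6), dazap1 at 337.6 CPM (nearest 44.3), dlx1a at 11020 CPM (nearest 104.2), elavl3 at 5419 CPM (nearest 113.7), pou4f2 at 2532 CPM (nearest 208.5) and LOC127520505 at 14750 CPM (nearest 18.95). The same library was highest for Hox genes at 0.427% of named counts (nearest 0.186%) and POU genes at 0.366% (nearest 0.0617%). It was also highest for keratins at 0.0203% (nearest 0.006%), on 12 counts against 11 in replicate 5. For some of these the order turned with the total. Of symbol counts, replicate 1 held more than replicate 2 for Hox genes (1.294% against 0.573%), grin2aa (0.0919% against 0.0385%) and keratins (0.0283% against 0.0272%), and dazap1 was close, at 0.0389% against 0.0453%.

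Replicate 4 stood above the others for eif1 at 21680 CPM (nearest 1964), ube2a at 4169 CPM (nearest 0), lhx9 at 2104 CPM (nearest 185.7) and LOC127507924 at 18150 CPM (nearest 141.9). Replicate 5 did so for psma4 at 4054 CPM (nearest 0), atp5mc3b at 3252 CPM (nearest 33.8), gapdhs at 343.7 CPM (nearest 40.3), the mitochondrial gene COX1 at 32.7 CPM (nearest 0) and mitochondrial ribosomal protein genes at 0.0873% of named counts (nearest 0.00403%). Replicate 1 stood below the others for solute carrier genes, at 0.181% of named counts (nearest 0.348%), but of symbol counts it held the largest share of them, 1.591% against 0.466% to 0.851% in the others.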

How the results depend on the processing

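The number of recurring symbols, 500, followed the rule most. It was 1367 with at least 1 count in each library, 86 with at least 10, 45 with at least 100 CPM, and 17 with replicate 3 also required. It was 164.4 with libraries thinned to the named total of replicate 2, 247.1 when thinned to the symbol total of replicate 1 (chosen after seeing the data), and 566 to 761 with a replicate left out. Recurring list members, 51, became 98 at 1 count, 7 with replicate 3, and 53 to 92 with a replicate left out. The mean share of the 10 largest named rows, 60.4%, became 86.2% over all rows, 22.4% over symbols and 26.35% without LOC127507967, the last chosen after seeing the data. The mean tRNA share, 0.0131%, became 0.0230% with replicate 3, 0.00133% without rows under 10 counts and 0.0360% of named rows, and the symbol share, 14.7%, became 43.8% of named rows. The mean correlation between libraries, 0.286, became 0.366 with a pseudocount of 10, 0.5997 over all symbol rows, 0.211 over symbols with at least 10 counts in a library, and 0.177 to 0.230 with a replicate left out and the count minimum applied again. Of the other alternatives to these results 45 stayed within the limits set for them, and of those to single genes and lists 710 did and 111 did not. The causes were not tested.

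No paired analysis was possible because the libraries form 1 group. Depth limits the rest: 31.0% to 37.9% of counted symbols rested on 1 count, and replicate 3 could not show most symbols that recurred elsewhere.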
